A study of Mus musculus with 21 samples.

Results

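The genes described are 10 imprinted genes of the mouse, chosen by symbol from a gene-level expression table: H19, Igf2, Peg3, Mest, Dlk1, Meg3, Peg10, Grb10, Cdkn1c and Plagl1. All 10 were among the 24623 gene symbols of the table. The table held RNA sequencing of pancreatic tumour cells of 2 clones from C57BL/6 mice, 6694c2 and 6419c5, which were implanted under the skin of C57BL/6 mice and sorted out of the tumours 3 weeks later. No animal was treated, and no age was given. Each clone had a parental line with EPHA2 intact, called WT, and 2 lines labelled EPHA2-KO, called KOA and KOB after the letters in the table. Each line of 6694c2 had 4 libraries and each line of 6419c5 had 3, which made 21 libraries of 6 lines. EPHA2 is a receptor tyrosine kinase, and the study compared WT with EPHA2-KO in each clone. The labels number the knockout lines and the table letters them, so which letter belongs to which number is not known. The sources used here do not say how EPHA2 was edited, whether an edited line grew from a single cell, or whether each library was a separate animal, and p-values measure only the spread between libraries. With a single WT line per clone, an effect of the knockout and a difference between lines cannot be told apart.

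An imprinted gene is expressed mainly from the copy inherited from the mother or mainly from the copy inherited from the father. The choice is set by DNA methylation laid down in the egg or the sperm at an imprinting control region, and it is kept through later cell divisions. Many imprinted genes act on fetal and placental growth, most are turned down after birth, and loss of imprinting at the H19 and Igf2 locus is a known feature of several tumours. H19, Meg3, Cdkn1c and, in most tissues, Grb10 are expressed from the maternal copy, and Igf2, Peg3, Mest, Dlk1, Peg10 and Plagl1 from the paternal copy. The values below are levels of RNA per gene, so neither the copy that was transcribed nor the methylation of any region was measured.

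Epha2 itself lay between 239.9 and 252 TPM (TPM is an abundance corrected for transcript length and scaled to the same total in each library) in 6694c2 WT and between 88.0 and 129.7 TPM in its lines labelled KO. In 6419c5 it lay between 164 and 190 TPM in WT, between 144 and 156 TPM in KOA and between 170 and 221 TPM in KOB. KOA thus lay below WT by a small margin, and KOB overlapped WT. How EPHA2 was edited is not given, so these RNA levels do not test the label. All lines are named by their labels throughout. The 10 epithelial markers summed to 6059 TPM or more in every library, and 5 or 6 of 9 acinar and endocrine pancreas markers were at 0 in every library of each line. The others were not silent. All 9 summed to 58.4 to 61.8 TPM in 6694c2 WT, 24.4 to 55.7 in KOA and 75.2 to 115.7 in KOB. In 6419c5 the sum was 22.1 to 24.3 TPM in WT, 4.82 to 9.14 in KOA and 2.24 to 3.15 in KOB.

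Promoter windows in the RefSeq tables for GRCm38.p6, which cover 250 bases before to 50 bases after a transcript start, were found for 7 of the 10 genes, with 14 windows in all. Methylation falls on CG dinucleotides, which are shown in capitals, but it was not measured, and no cause of a level was tested. The windows printed are of Meg3 and Mest, called lower in a 6694c2 line labelled KO, and of Peg3, read as a level only. They are Meg3 at chr12:109540746-109541045 on the plus strand, Mest at chr6:30737800-30738099 on the plus strand and Peg3 at chr7:6730370-6730669 on the minus strand, each printed 5′ to 3′ along the gene.
Meg3: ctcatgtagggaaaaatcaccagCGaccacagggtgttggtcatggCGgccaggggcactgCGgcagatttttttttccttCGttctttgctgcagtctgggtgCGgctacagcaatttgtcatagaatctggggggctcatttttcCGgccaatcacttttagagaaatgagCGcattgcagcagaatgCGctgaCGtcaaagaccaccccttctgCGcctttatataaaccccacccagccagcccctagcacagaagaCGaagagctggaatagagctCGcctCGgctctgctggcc
Mest: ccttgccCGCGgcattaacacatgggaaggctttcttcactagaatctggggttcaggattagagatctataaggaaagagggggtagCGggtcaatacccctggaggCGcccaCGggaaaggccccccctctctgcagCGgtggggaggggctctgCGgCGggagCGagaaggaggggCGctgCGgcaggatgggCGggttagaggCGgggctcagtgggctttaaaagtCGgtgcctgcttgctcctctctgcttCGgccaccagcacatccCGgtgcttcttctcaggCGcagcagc
Peg3: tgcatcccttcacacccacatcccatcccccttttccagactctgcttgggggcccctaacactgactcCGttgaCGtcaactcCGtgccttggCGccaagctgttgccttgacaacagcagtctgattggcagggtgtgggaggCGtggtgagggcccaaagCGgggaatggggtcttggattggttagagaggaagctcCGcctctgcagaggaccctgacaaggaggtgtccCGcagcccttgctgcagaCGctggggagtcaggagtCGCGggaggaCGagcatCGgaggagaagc
The Meg3 window held 13 CG, the Mest window 17 and the Peg3 window 13, against a median of 7 over the 32851 windows of the RefSeq table. Fewer CG were held by 62.1% of all windows than by those of Meg3 and Peg3, and by 68.6% than by that of Mest. A second Meg3 start at chr12:109545148-109545447 held a single CG, and another Mest start at chr6:30733256-30733555 held 8. TGCCGC, the core that the imprint-keeping protein ZFP57 binds when its CG is methylated, was searched on both strands and overlaps a CG by its own letters. It occurred 2 times in the Mest window and once in the Meg3 window, it was not found in the Peg3 window, and 11.6% of all windows held it. The window of Grb10 at chr11:12037371-12037670 was the richest in CG of the members' windows, with 45, and 98.1% of all windows had fewer. CCATNTT, the core of a site of the factor YY1, was in none of the 3 windows shown and in 16.1% of all windows.

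Most of the 10 genes were expressed at a low level. Igf2, Peg3, Dlk1, Peg10 and Plagl1 stayed below 1 TPM in every library, as did 38.2% of all genes in the table, and only Meg3 exceeded 10 TPM in any library. H19, Mest, Meg3, Grb10 and Cdkn1c reached 1 TPM in at least 3 libraries, the filter for testing, which 58.2% of the table passed. Grb10 passed it through the lines where it is high, since only 5 libraries, all of 6419c5, reached 1 TPM. Across the 6 lines the highest and lowest line means differed 32.1-fold for Meg3, 12.2-fold for H19, 8.56-fold for Cdkn1c, 8.0-fold for Grb10 and 3.55-fold for Mest. The libraries of 6694c2 KOB had the lowest line mean of 6 genes: Meg3, H19, Mest, Grb10, Peg3 and Peg10. All 5 tested genes differed among the 6 lines by limma's moderated F test on log2(TPM + 1), with adjusted p from 3.28e-09 for Meg3 to 2.77e-04 for Mest. That test called 86.3% of the 14337 genes tested, so differing among these lines was common to most genes.

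**Figure D1:**
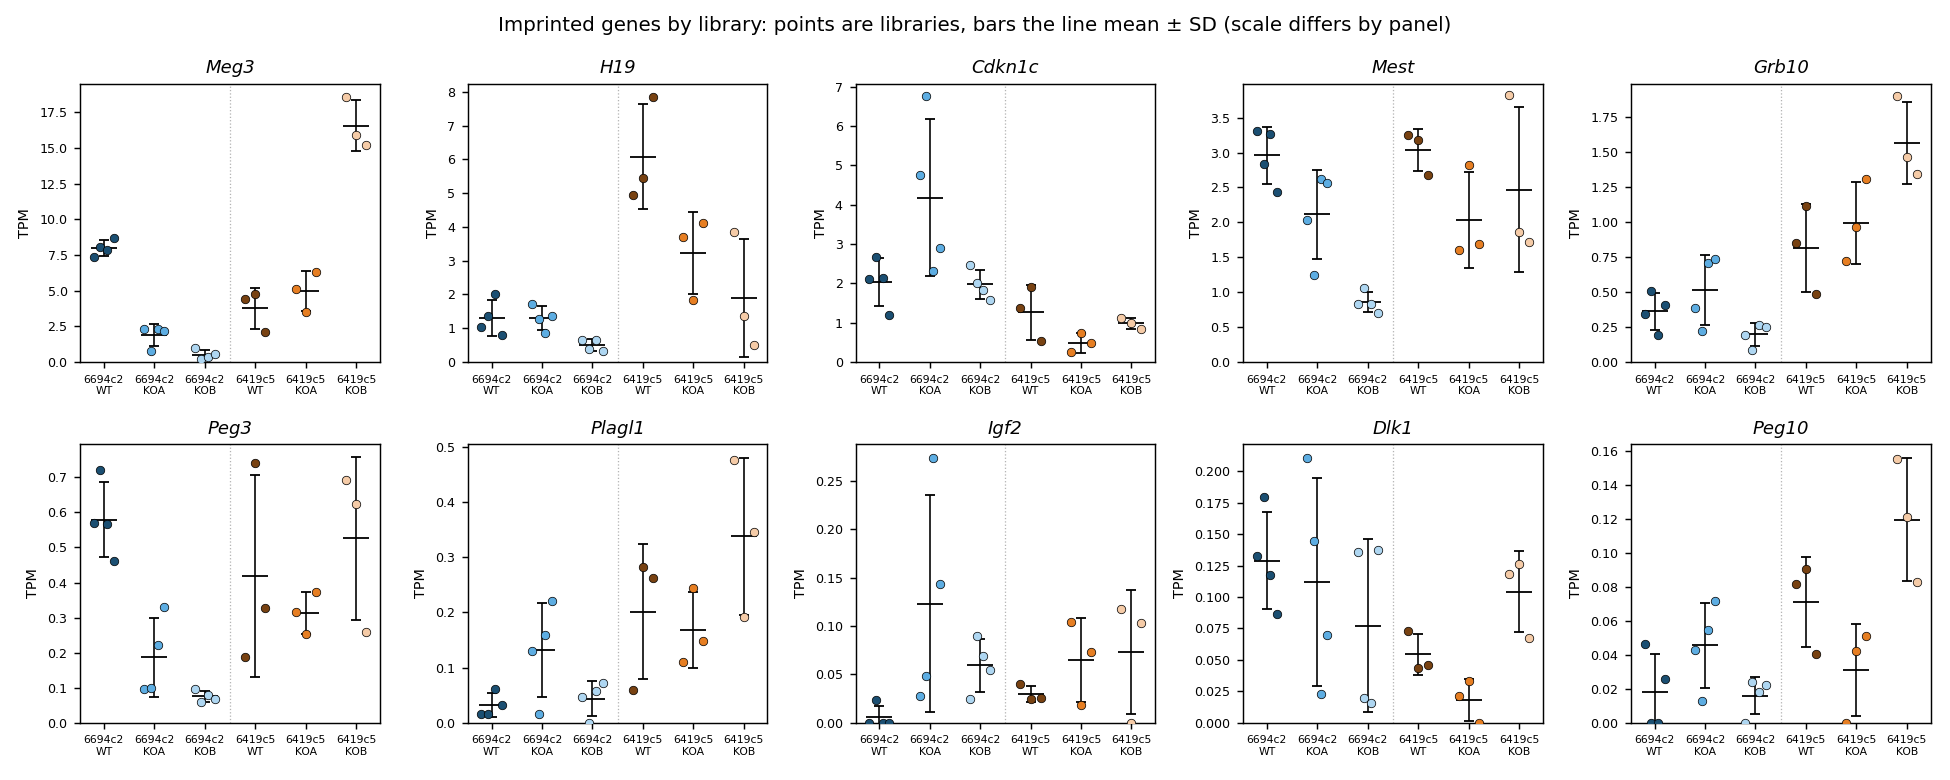
TPM of the 10 imprinted genes in each of 21 libraries (points) with the mean ± SD of each line (bars); blue lines are 6694c2, brown to orange lines are 6419c5, and the vertical scale differs by panel. Meg3 in 6419c5 KOB lay between 15.2 and 18.6 TPM, above all other libraries, while Igf2, Peg3, Dlk1, Peg10 and Plagl1 stayed below 1 TPM everywhere.

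Meg3, a long noncoding RNA expressed from the maternal copy of the Dlk1-Dio3 domain, had the widest range of line means among the tested members; it fell in both lines labelled KO of 6694c2 and rose in 1 of the 2 of 6419c5. It lies at chr12:109540996-109571729 (GRCm38.p6). In 6694c2 it measured 7.34, 8.07, 7.81 and 8.65 TPM in WT, 2.29, 0.782, 2.33 and 2.14 TPM in KOA, and 0.977, 0.203, 0.316 and 0.565 TPM in KOB. All 8 libraries labelled KO lay far below the WT libraries, and the ranges of KOA and KOB overlapped in a single KOA library. In 6419c5 it measured 4.38, 4.73 and 2.12 TPM in WT, 5.09, 3.51 and 6.30 TPM in KOA, and 18.6, 15.9 and 15.2 TPM in KOB. KOB stood above every other library, and KOA overlapped WT. By line the order was 6419c5 KOB (16.6 ± 1.79 TPM, SD, n = 3), 6694c2 WT (7.97 ± 0.548, n = 4), 6419c5 KOA (4.97 ± 1.40, n = 3), 6419c5 WT (3.75 ± 1.42, n = 3), 6694c2 KOA (1.89 ± 0.742, n = 4) and 6694c2 KOB (0.515 ± 0.343, n = 4). The libraries of neighbours in this order overlapped for 6419c5 KOA and 6419c5 WT, for 6419c5 WT and 6694c2 KOA, and for the 6694c2 KO lines.

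Meg3 fell 4.22-fold in 6694c2 KOA, by a difference of -1.68 ± 0.22 in log2(TPM + 1) (SE, limma adjusted p 3.09e-05), and 15.5-fold in 6694c2 KOB, by -2.59 ± 0.22 (adjusted p 3.42e-08). In KOB the level was near 0, where the pseudocount of 1 makes the log2 difference smaller than the ratio of means. The KO lines differed from each other, with KOA higher than KOB by 0.91 ± 0.22 (limma adjusted p 0.00246). In 6419c5 KOB Meg3 rose 4.42-fold, by 1.93 ± 0.26 (adjusted p 1.07e-05), while 6419c5 KOA differed from WT by 0.35 ± 0.26 (limma adjusted p 0.327), which did not pass. The mean effect of the KO lines was -2.13 ± 0.19 in 6694c2 (adjusted p 1.5e-07) and 1.14 ± 0.22 in 6419c5 (adjusted p 4.64e-04). The difference between these effects was -3.28 ± 0.29 (limma adjusted p 3.75e-07). When line was fitted as a random effect, so that lines rather than libraries set the error, none of these 3 passed (adjusted p 0.0777, 0.323 and 0.0973). The WT lines also differed, with 6694c2 2.13-fold higher than 6419c5 (0.97 ± 0.24, limma adjusted p 0.00242).

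The other genes of the domain did not all move with Meg3. Rian, a second maternal noncoding RNA just downstream of Meg3 (chr12:109603945-109661716), measured 1.97, 2.69, 2.53 and 2.84 TPM in 6694c2 WT, 1.55, 0.634, 2.03 and 1.98 in KOA, and 0.483, 0.343, 0.0872 and 0.254 in KOB. In 6419c5 it measured 0.878, 1.62 and 1.02 TPM in WT, 1.55, 0.852 and 1.87 in KOA, and 6.39, 3.93 and 3.72 in KOB. The 4 lowest libraries were those of 6694c2 KOB and the 3 highest those of 6419c5 KOB. Rian fell in 6694c2 KOB by -1.44 ± 0.20 (limma adjusted p 1.07e-05) and rose in 6419c5 KOB by 1.37 ± 0.23 (adjusted p 1.39e-04). In 6694c2 KOA its difference of -0.49 ± 0.20 did not pass (limma adjusted p 0.0893), although Meg3 fell there. Mirg, a noncoding RNA further downstream, was too low to test: its line means ran from 0.0184 TPM in 6694c2 KOB to 0.924 TPM in 6419c5 KOB. In 6694c2 KOA, where Meg3 was lower than in WT, Mirg lay between 0.391 and 0.845 TPM against 0.151 to 0.508 in WT.

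Among the paternal genes of the domain, Dlk1, which encodes a membrane protein related to Notch ligands and lies at chr12:109452485-109463336, was at most 0.211 TPM in any library and was at 0 in 1 library. Rtl1, a retrotransposon-derived gene, measured 2.55, 1.81, 8.92 and 8.55 TPM in 6694c2 KOA and at most 0.521 TPM in every library of the other 5 lines. It passed the filter only through 6694c2 KOA, so its difference from WT is given as a description, 5.46 against 0.237 TPM in the line means. In 6694c2 KOB, where Meg3 also fell, Rtl1 had a mean of 0.384 TPM. The span of Rtl1 in RefSeq (chr12:109564900-109604418) overlaps the end of Meg3 and the start of Rian, and since the strand of counting was not stated, reads of these genes may not be separable. Dio3, which encodes the deiodinase that inactivates thyroid hormone, had line means of 1.41, 1.40 and 0.473 TPM in 6694c2 WT, KOA and KOB and of 1.75, 0.332 and 0.886 TPM in 6419c5 WT, KOA and KOB. It fell in 6694c2 KOB (-0.71 ± 0.20, limma adjusted p 0.00636) and in 6419c5 KOA (-1.02 ± 0.23, adjusted p 0.00231), where Meg3 was not called.

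**Figure D2:**
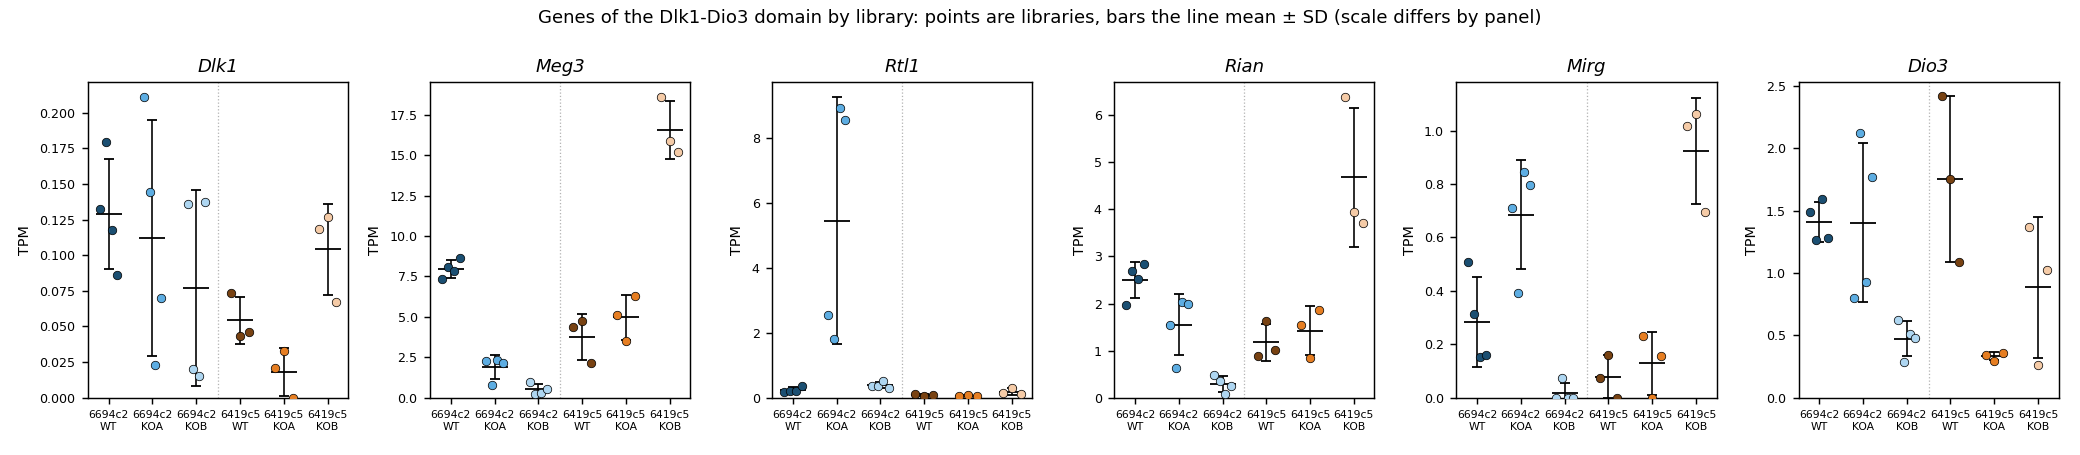
TPM of 6 genes of the Dlk1-Dio3 domain in each library (points) with the mean ± SD of each line (bars), in their order along the chromosome; the vertical scale differs by panel. Meg3, Rian and Mirg had their highest line mean in 6419c5 KOB and their lowest in 6694c2 KOB, while Rtl1 was above 1 TPM in 6694c2 KOA alone.

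H19, a maternal noncoding RNA and the host of miR-675, was highest in 6419c5 WT and fell in 6419c5 KOB. It lies at chr7:142575530-142578146. It measured 4.94, 5.44 and 7.86 TPM in 6419c5 WT, 3.71, 1.83 and 4.11 TPM in KOA, and 3.86, 1.35 and 0.488 TPM in KOB. All 6 libraries labelled KO lay below the WT libraries, and KOB was the most spread of the 3 lines (SD 1.75 TPM). In 6694c2 it measured 1.03, 1.36, 2.02 and 0.811 TPM in WT, 1.73, 1.28, 0.865 and 1.35 TPM in KOA, and 0.642, 0.375, 0.658 and 0.312 TPM in KOB. KOA lay within the WT range, and KOB lay below it without a call in the main fit. Between the WT lines H19 was 4.65-fold higher in 6419c5, a difference of -1.62 ± 0.30 for 6694c2 less 6419c5 (limma adjusted p 1.95e-04). It fell 3.20-fold in 6419c5 KOB, by -1.44 ± 0.32 (adjusted p 0.00155), and the mean effect in 6419c5 was -1.11 ± 0.28 (limma adjusted p 0.00382). The latter was lost when line was a random effect (adjusted p 0.366). In 6419c5 KOA the difference was -0.77 ± 0.32 (limma adjusted p 0.0775), and in 6694c2 KOB -0.60 ± 0.28 (adjusted p 0.0826). Both passed without 6419c5 KOB library 1 (limma adjusted p 0.0237 and 0.0266) or library 3 (0.0381 and 0.0420). The difference in 6694c2 KOB also passed with only the compared lines in the fit (limma adjusted p 0.0130) and with a pseudocount of 0.1 (0.0296). In the order of line means, 6419c5 WT lay apart from 6419c5 KOA and 6694c2 KOB lay apart from 6694c2 KOA, and the other neighbours overlapped.

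Igf2, the paternal fetal growth factor gene that shares enhancers with H19 (chr7:142650768-142666816), stayed at or below 0.274 TPM in every library and was at 0 in 4. Of the 6694c2 WT libraries, 3 were at 0 and library 2 measured 0.0231 TPM. Igf2 passed in no comparison when genes of every level were tested by limma. Igf2r, the maternal gene of the receptor that clears IGF2, was well expressed, with line means from 15.3 ± 1.86 TPM in 6694c2 KOB (SD, n = 4) to 36.3 ± 7.86 TPM in 6419c5 WT (n = 3). It fell in 6694c2 KOB by -0.62 ± 0.13 (limma adjusted p 7.33e-04). Of 20 genes of the IGF2 axis outside the 10, 16 were tested and 10 differed between the WT lines, beside 53.5% of all genes. The 16 tested include Igf2bp3 and Igfals, which passed the filter only through 6419c5, where they are high. The 4 with the smallest p over the 6 lines were Igf2bp3, Igfbp3, Igfals and Igfbp5. Igf2bp3, a fetal RNA-binding protein that binds Igf2 mRNA, lay between 0.240 and 0.621 TPM in 6694c2 and between 19.1 and 24.1 TPM in 6419c5, with no call in a KO line. These levels of Igf2bp3 are given as a description. Igfbp3, a secreted IGF carrier, fell from 461.5 ± 14.6 TPM in 6694c2 WT to 30.5 ± 8.19 TPM in KOB (SD, n = 4 each; -3.91 ± 0.21, limma adjusted p 1.14e-10), and measured 535.9 ± 157.1 TPM in KOA. In 6419c5 the fall was -1.52 for KOA (adjusted p 9.98e-05) and -0.85 for KOB (limma adjusted p 0.00863). Igfbp5, another carrier, rose in 6694c2 KOB (2.11 ± 0.31, limma adjusted p 1.88e-05) and fell in 6419c5 KOA (-1.21 ± 0.36, adjusted p 0.0151). Igfals, whose product stabilises circulating IGF complexes, was at most 0.452 TPM in 6694c2 and at least 2.73 TPM in 6419c5, and it passed the filter only through 6419c5.

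Cdkn1c, the maternal gene of the cyclin-dependent kinase inhibitor p57 (chr7:143458339-143461059), was highest in 6694c2 KOA. It measured 2.12, 2.67, 2.14 and 1.18 TPM in 6694c2 WT, 4.75, 6.75, 2.32 and 2.90 TPM in KOA, and 2.47, 2.02, 1.83 and 1.58 TPM in KOB. In 6419c5 it measured 1.36, 1.91 and 0.523 TPM in WT, 0.240, 0.740 and 0.485 TPM in KOA, and 1.11, 0.988 and 0.835 TPM in KOB. In 6694c2 KOA libraries 1, 2 and 4 lay above every library of the other lines, and library 3 lay within the WT range. Cdkn1c rose 2.06-fold there, by 0.72 ± 0.24 (limma adjusted p 0.0380), and was higher in KOA than in KOB by 0.73 ± 0.24 (adjusted p 0.0184). The rise over WT did not pass without any single library of WT 1, 3 or 4 or of KOA 1 or 2 (adjusted p from 0.0639 to 0.128), nor with size factors (0.0660), quantile normalization (0.139), a pseudocount of 0.1 (0.0809), no filter (0.0540) or only the compared lines in the fit (0.108). The difference between KOA and KOB did not pass without KOA library 1 (limma adjusted p 0.0524) or 2 (0.0721) or with quantile normalization (0.0572). Of its neighbours, Kcnq1ot1, the paternal noncoding RNA that silences the domain, rose in 6419c5 KOB (0.51 ± 0.19, limma adjusted p 0.0354). Kcnq1, the potassium channel gene whose span (chr7:143106877-143427050) contains that of Kcnq1ot1 (chr7:143213111-143296547), rose in the same line from 5.60 to 16.6 TPM (1.43 ± 0.35, limma adjusted p 0.00343), and their reads may not be separable with the strand of counting not stated. In 6694c2 Kcnq1 rose from 2.22 TPM in WT to 9.36 TPM in KOA (1.53 ± 0.31, limma adjusted p 0.00160) and 19.2 TPM in KOB (2.62 ± 0.31, 1.32e-06). Slc22a18, a maternal transporter gene of the domain, rose in 6694c2 KOB from 19.1 to 34.4 TPM (0.82 ± 0.22, limma adjusted p 0.00524) and in the mean of the 6419c5 KO lines, to 31.3 TPM (1.05 ± 0.22, 0.000982). Phlda2, a maternal gene that restrains placental growth, rose 2.17-fold in 6694c2 KOB, from 14.5 to 31.4 TPM (1.05 ± 0.30, limma adjusted p 0.00765), where Cdkn1c differed from WT by -0.01 ± 0.24 (adjusted p 0.981).

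Mest, a paternal gene for a hydrolase-like protein of the endoplasmic reticulum (chr6:30733506-30748466), fell in 6694c2 KOB. It measured 3.30, 2.84, 3.26 and 2.44 TPM in 6694c2 WT, 2.03, 1.24, 2.62 and 2.56 TPM in KOA, and 0.832, 1.05, 0.823 and 0.707 TPM in KOB. The 4 KOB libraries lay below every other library of the study. In 6419c5 it measured 3.25, 3.17 and 2.68 TPM in WT, 1.60, 2.82 and 1.69 TPM in KOA, and 3.83, 1.86 and 1.72 TPM in KOB, and all 3 lines overlapped. Mest fell 3.47-fold in 6694c2 KOB, by -1.09 ± 0.18 (limma adjusted p 7.71e-05), and was higher in KOA than in KOB by 0.73 ± 0.18 (adjusted p 0.00335). In 6694c2 KOA the difference from WT was -0.37 ± 0.18 (limma adjusted p 0.167). The mean effect in 6694c2, -0.73 ± 0.16 (adjusted p 0.00145), was lost when line was a random effect (limma adjusted p 0.549). The WT lines of the clones differed by -0.03 ± 0.20 (limma adjusted p 0.912). Copg2, a coat protein gene that overlaps Mest on the opposite strand, rose in 6694c2 KOB by 0.36 ± 0.09 (adjusted p 0.00224, limma).

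Peg3, a paternal gene for a zinc finger protein (chr7:6703892-6730462), was below 1 TPM in every library and was not among the genes tested at the filter. It measured 0.569, 0.720, 0.567 and 0.461 TPM in 6694c2 WT, 0.0956, 0.0982, 0.221 and 0.331 TPM in KOA, and 0.0956, 0.0598, 0.0800 and 0.0661 TPM in KOB. Every library labelled KO lay below every WT library of that clone. In 6419c5 it lay between 0.188 and 0.740 TPM in the 3 lines, which overlapped. When genes of every level were tested by limma, Peg3 was lower than in WT by -0.42 in 6694c2 KOA, with an adjusted p of 0.0118, and by -0.55 in 6694c2 KOB, with an adjusted p of 4.42e-04. Because the depth at this level is unknown, Peg3 is read as a level only and is not counted among the calls.

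Grb10, which encodes an adaptor that dampens insulin and IGF receptor signalling (chr11:11930499-12037428), was higher in 6419c5 than in 6694c2. It measured 0.850, 1.11 and 0.486 TPM in 6419c5 WT, 0.719, 0.961 and 1.30 TPM in KOA, and 1.90, 1.46 and 1.34 TPM in KOB. In 6694c2 it measured 0.345, 0.504, 0.191 and 0.406 TPM in WT, 0.388, 0.218, 0.708 and 0.738 TPM in KOA, and 0.189, 0.0842, 0.263 and 0.247 TPM in KOB. KOB of 6419c5 lay above every other library, and the WT lines overlapped. Grb10 was lower in 6694c2 WT than in 6419c5 WT by -0.41 ± 0.16 (limma adjusted p 0.0373) and rose in 6419c5 KOB by 0.51 ± 0.17 (adjusted p 0.0213). It passed the filter only through libraries of 6419c5, where it is high, so both calls are given as a description. Neither call was stable: the first did not pass without WT libraries 1, 3 or 4 of 6694c2 or 1 or 2 of 6419c5 (adjusted p 0.0526 to 0.185) or with quantile normalization (0.146). The second did not pass without 6419c5 WT library 3 (limma adjusted p 0.114) or KOB library 1 (0.0893), without both libraries high in Mir6236 (0.117), with a pseudocount of 0.1 (0.0855), or with only the compared lines (0.0678). The libraries high in Mir6236 are 6419c5 WT library 3 and 6694c2 KOB library 4. The settings without WT library 3 and without both libraries thus drop the same library of this comparison. Ddc, the dopa decarboxylase gene next to Grb10 on chromosome 11, measured 25.8 ± 8.21, 133.7 ± 11.9 and 61.0 ± 19.03 TPM in 6419c5 WT, KOA and KOB (SD, n = 3 each) and at most 2.42 TPM in 6694c2. It rose in 6419c5 by 2.37 ± 0.22 in KOA (limma adjusted p 3.24e-07) and 1.21 ± 0.22 in KOB (2.71e-04). In 6694c2 it fell by -0.88 ± 0.19 in KOA (limma adjusted p 0.00306) and -0.67 ± 0.19 in KOB (0.00699).

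Peg10, a retrotransposon-derived paternal gene needed for the placenta (chr6:4747306-4760517), reached at most 0.155 TPM and was at 0 in 4 libraries. Its neighbour Sgce, the paternal gene of epsilon-sarcoglycan, had line means from 0.0991 TPM in 6694c2 KOB to 1.37 TPM in 6419c5 KOB and fell in 6694c2 KOB (-0.39 ± 0.15, limma adjusted p 0.0450). Sgce passed the filter only through 6419c5 and was at most 0.829 TPM in any 6694c2 library. Its fall from a mean of 0.440 TPM in 6694c2 WT is therefore given as a description. Plagl1, a paternal zinc finger gene that in the mouse regulates other imprinted genes (chr10:13090832-13131694), reached at most 0.477 TPM, with its highest library in 6419c5 KOB and 1 library at 0. When genes of every level were tested by limma, Plagl1 was lower in 6694c2 WT than in 6419c5 WT (-0.21, adjusted p 0.0302) and so was Peg10 (-0.07, adjusted p 0.0487). At these levels the depth behind a value is unknown, because TPM keeps no read count, so a value of 0 sets no upper limit on expression.

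Counted by comparison, 3 of the 5 tested genes differed between the WT lines, Meg3 higher and H19 and Grb10 lower in 6694c2, against 53.5% of all genes tested (21.5% higher and 32% lower). The calls of Grb10 are counted in this paragraph although it passed the filter only through 6419c5, where it is high. In 6694c2 the mean effect of the KO lines called Meg3 and Mest lower, 2 of 5 genes beside 37.4% of all genes (23.9% higher and 13.5% lower). By line, 6694c2 KOA had 2 calls, Meg3 lower and Cdkn1c higher, beside 22.7% of all genes (15.2% higher and 7.56% lower). In 6694c2 KOB there were 2 calls, Meg3 and Mest lower, beside 48.6% (29.2% higher and 19.4% lower). KOA exceeded KOB in 3 genes, Meg3, Mest and Cdkn1c, beside 46.5% of all genes called in either direction, 22.9% higher and 23.6% lower. In 6419c5 the mean effect called 2 genes, Meg3 higher and H19 lower, beside 41.4% (26.5% higher and 15% lower). In 6419c5 KOA limma called 0 of 5, beside 31.8% (19.1% higher and 12.7% lower), and 1 gene, H19, had an unadjusted p under 0.05. In 6419c5 KOB 3 of 5 were called, Meg3 and Grb10 higher and H19 lower, beside 43.3% (28.5% higher and 14.7% lower). KOA differed from KOB in Meg3 alone, lower in KOA, beside 17.4% (4.76% higher and 12.7% lower). The KO effects of the clones differed in Meg3 alone, 1 of 5 genes beside 28.6% of all genes (13% higher and 15.6% lower). With 0 to 3 of 5 genes called per comparison, beside 17.4% to 53.5% of all genes, the counts do not set the 5 genes apart from other genes of the table. The median difference over all genes tested was -0.11 between the WT lines and 0.10 in 6419c5 KOB, and -0.02 and -0.01 with size factors, so calls of this size or smaller depend on the scale.

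**Figure D3:**
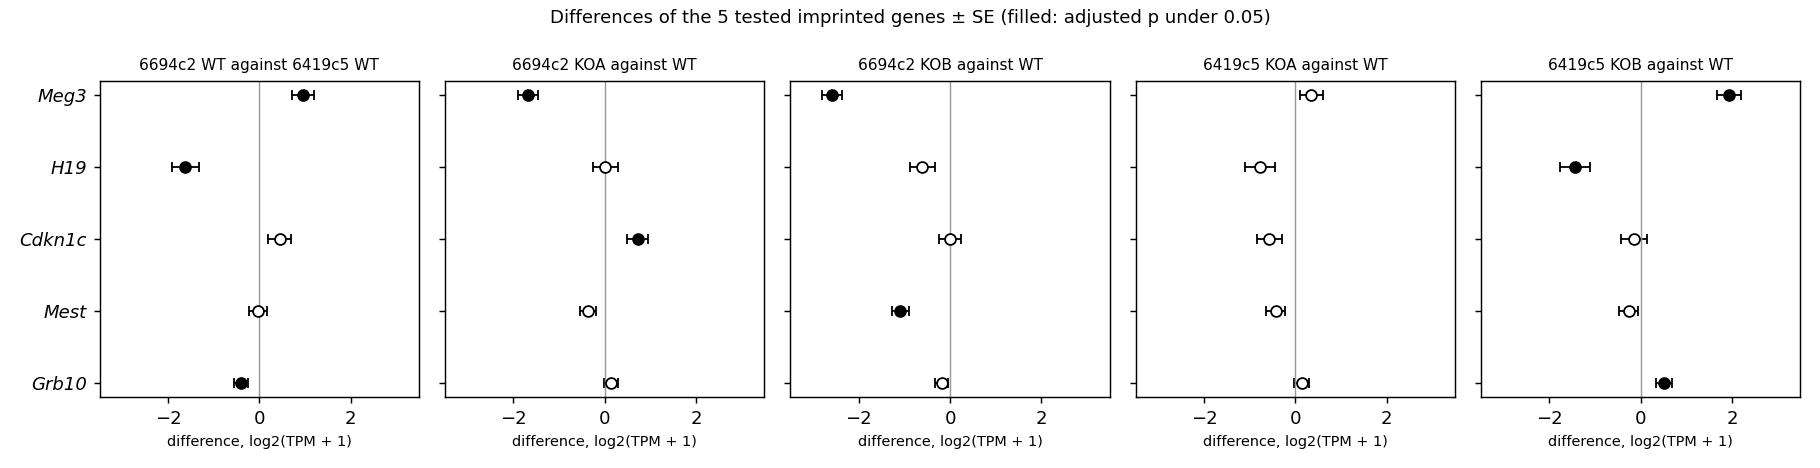
Differences in log2(TPM + 1) with their SE for the 5 tested imprinted genes in 5 comparisons; filled points had a limma adjusted p under 0.05. Meg3 lay at -1.68 and -2.59 in the KO lines of 6694c2 and at 0.35 and 1.93 in those of 6419c5, and H19 at -1.44 in 6419c5 KOB.

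Among the wider set of imprinted genes both rises and falls were called in every comparison of lines. Of 72 further imprinted genes listed, 71 were in the table, 23 of these stayed below 1 TPM in every library, and 44 were tested. Among the 44, Rtl1, Rasgrf1 and Sgce passed the filter only through lines where they are high, and they are counted here. Between the WT lines 24 of the 44 differed, 11 higher and 13 lower in 6694c2, beside 53.5% of all genes (21.5% higher and 32% lower). The median difference was -0.02, against -0.11 over all genes tested. The mean effect of the KO lines called 10 higher and 15 lower in 6694c2, beside 37.4% of all genes (23.9% higher and 13.5% lower). Its median was -0.13, against 0.07 over all genes. In 6419c5 it called 9 higher and 12 lower, beside 41.4% (26.5% higher and 15% lower), with a median of 0.04, against 0.08. By line there were 15 calls in 6694c2 KOA (beside 22.7% of all genes), 30 in 6694c2 KOB (48.6%), 11 in 6419c5 KOA (31.8%) and 20 in 6419c5 KOB (43.3%). The KO effects of the clones differed for 21 of the 44, beside 28.6%, and 43 of 44 differed among the 6 lines, beside 86.3%.

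The 4 further imprinted genes with the smallest p over the 6 lines were Ddc, described above, Rasgrf1, H13 and Gab1. Rasgrf1, a paternal gene for a RAS exchange factor, measured 8.20, 9.62, 7.02 and 11.3 TPM in 6694c2 WT, 0.868, 0.522, 1.36 and 0.650 TPM in KOA, and 0.0960, 0.227, 0.239 and 0.304 TPM in KOB. The 3 lines did not overlap, and in 6419c5 every library was at 0.653 TPM or less, with all 3 KOB libraries at 0. Rasgrf1 passed the filter only through 6694c2 WT, so these levels are given as a description. H13, the signal peptide peptidase gene, measured 71.2 ± 7.16 TPM in 6694c2 WT (SD, n = 4) and 140.6 ± 4.97 TPM in 6419c5 WT (n = 3), fell in 6694c2 KOB (-0.53 ± 0.11, limma adjusted p 4.69e-04) and rose in 6419c5 KOB (0.45 ± 0.12, adjusted p 0.00663). Gab1, which encodes a docking protein of receptor tyrosine kinases and is imprinted in the mouse placenta, fell in 6694c2 by -1.09 ± 0.18 in KOA (limma adjusted p 3.27e-04) and -1.32 ± 0.18 in KOB (9.29e-06). Its mean was 2.53 TPM in 6694c2 WT, 0.680 TPM in KOA and 0.413 TPM in KOB, and 8.48 TPM in 6419c5 WT.

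**Figure D4:**
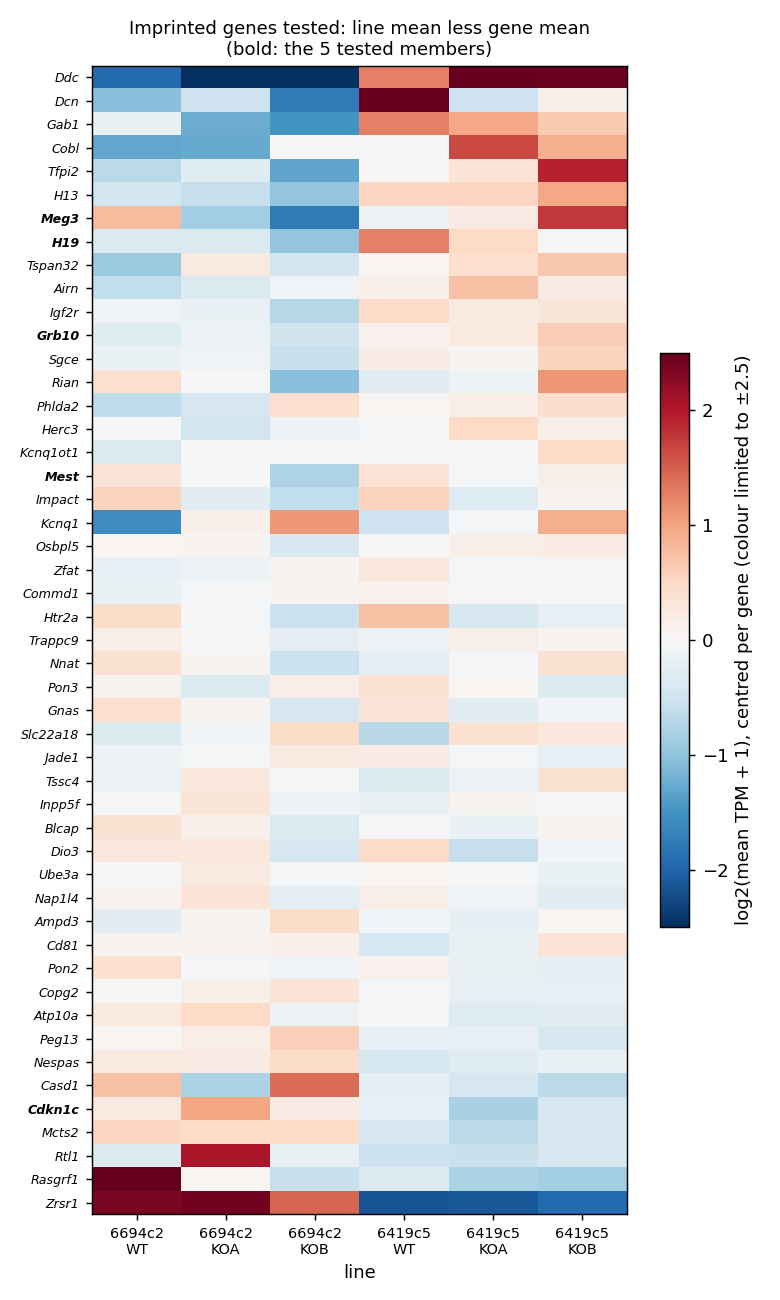
Log2(mean TPM + 1) of each line less the gene's mean over the 6 lines, for the 5 tested imprinted genes in bold and 44 further imprinted genes. Red is above and blue below the gene's own mean, and the colour is limited to ±2.5. Ddc and Zrsr1 separate the clones, Rasgrf1 was highest in 6694c2 WT, and Rtl1 was highest in 6694c2 KOA.

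Genes that keep or read imprints were counted in the same way. Of 30 such regulators 26 were tested, 13 differed between the WT lines (beside 53.5% of all genes), and the mean effect of the KO lines called 5 in 6694c2 (37.4%) and 8 in 6419c5 (41.4%). Zfp57, which protects imprints from demethylation in the early mouse embryo, measured 48.7 ± 4.13, 48.3 ± 1.05 and 33.2 ± 3.35 TPM in 6694c2 WT, KOA and KOB (SD, n = 4 each). The 6419c5 lines had 19.6 ± 2.38 in WT, 31.2 ± 4.43 in KOA and 25.3 ± 2.19 TPM in KOB (SD, n = 3 each). It fell in 6694c2 KOB (-0.54 ± 0.09, limma adjusted p 1.12e-04) and rose in 6419c5 by 0.64 ± 0.11 in KOA (1.87e-04) and 0.36 ± 0.11 in KOB (0.0129). Trim28, its corepressor, rose in 6694c2 KOA (0.29 ± 0.06, limma adjusted p 0.00305) and fell in KOB (-0.23 ± 0.06, adjusted p 0.00557). Mbd3 and Hdac1, both of a deacetylase complex, were also among the 4 with the smallest p, and Mbd3 rose most in 6419c5 KOB (0.70 ± 0.08, limma adjusted p 1.43e-06). Of 21 microRNA and small nucleolar RNA genes of imprinted loci in the table, 18 were at 0 in every library and none was tested.

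The genes whose profile over the 6 line means was most like that of a member were named by the smallest root mean square difference of the centred log2 values. For Meg3 they were Mir1945 (0.49) and Slc7a2 (0.52), and for H19 Apbb1ip and Spink2 (both 0.10). For Mest they were Tpm4 (0.09) and Rai14 (0.10), for Grb10 Gemin8 (0.05) and Dchs1 (0.07), and for Cdkn1c Mmp11 (0.13) and Mtcl1 (0.15). The nearest profiles of Meg3 were farther from it than those of the other 4 members, which had matches within 0.15. This distance is not scaled to a gene's own range of line means, which was 3.56 for Meg3 and 1.10 to 2.23 for the others. It therefore does not show that the profile of Meg3 was more particular. With 14337 genes and 6 line means, likeness of this size is a description only.

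Markers of other cells varied between lines and in part with these genes. The 10 fibroblast markers (Col1a1, Col1a2, Col3a1, Lum, Dpt, Pdgfra, Pdgfrb, Fap, Thy1 and Mfap5) were all in the table and none was at 0 in every library of a line. Their sum ran from 236 to 361 TPM in 6694c2 WT, from 202 to 835 in KOA, from 71.6 to 122 in KOB, from 1130 to 1765 in 6419c5 WT, from 681 to 850 in KOA and from 1678 to 2484 in KOB. The sum was thus lowest in 6694c2 KOB and highest in 6419c5 KOB, where Meg3 was also lowest and highest. Within 6694c2 KOA, library 2 had both the lowest sum, 202 TPM, and the lowest Meg3, 0.782 TPM. Between 6694c2 WT and KOA the 2 went apart: 3 of 4 KOA libraries had sums of 645 TPM or more, above all WT libraries, with Meg3 at 2.33 TPM or less. In 6419c5 KOB, library 1 had the highest sum, 2484 TPM, and the highest Meg3, H19, Mest, Grb10 and Cdkn1c of its line. Other lines differed: in 6419c5 WT, library 3 had the highest sum, 1765 TPM, and the highest H19. The same library had the lowest Meg3, Mest, Grb10 and Cdkn1c of 6419c5 WT, and it is a library high in Mir6236. Library 2 of 6694c2 KOA, with the lowest sum, had the highest Cdkn1c of its line, 6.75 TPM. Dcn, a fibroblast matrix gene imprinted in the mouse placenta, measured 54.9, 122.9 and 236.7 TPM in 6419c5 WT, where H19 was highest, and at most 13.7 TPM elsewhere. All 10 macrophage markers were in the table, with none at 0 in every library of a line. They summed to 175 to 1335 TPM in 6694c2 WT, 164 to 937 in KOA and 57.8 to 338 in KOB, and to 893 to 2451 TPM in 6419c5 WT, 191 to 4208 in KOA and 218 to 342 in KOB. In 6419c5 the epithelial sum was 6059 to 8263 TPM in WT, where H19 was highest, 14538 to 16209 TPM in KOA and 13147 to 17229 TPM in KOB. The part of other cells in these differences was not tested, and in sorted bulk samples fewer cells of a type and less RNA per cell cannot be told apart.

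**Figure D5:**
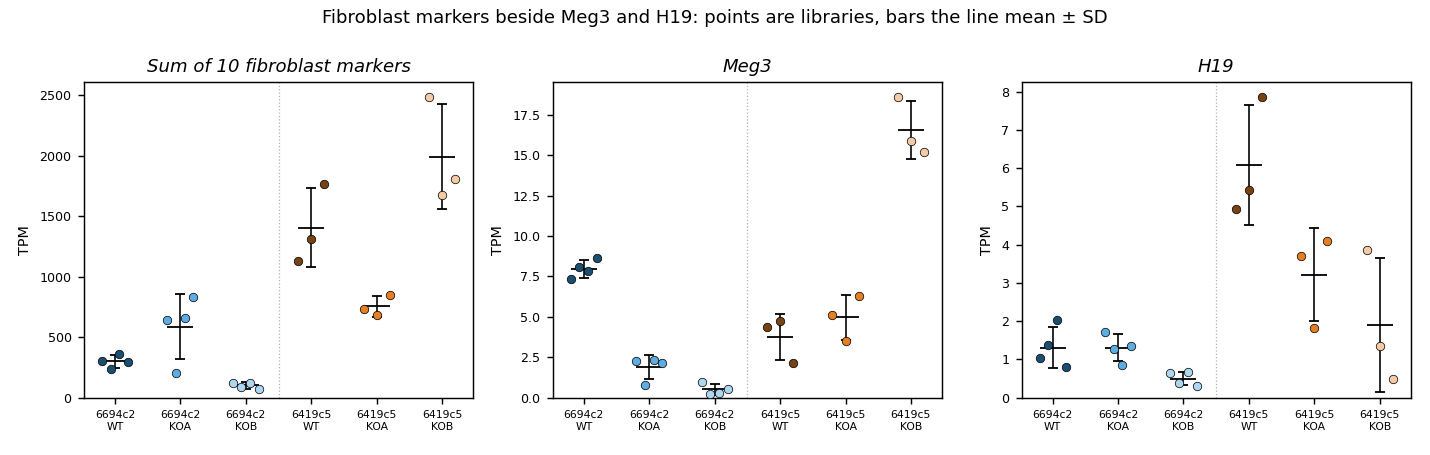
Summed TPM of 10 fibroblast markers beside the TPM of Meg3 and H19 in each library (points) with the mean ± SD of each line (bars). The sum and Meg3 were both lowest in 6694c2 KOB and highest in 6419c5 KOB, but 6694c2 WT had higher Meg3, 7.34 to 8.65 TPM, than 6694c2 KOA with a sum no higher than 361 TPM.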

How the data were processed

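RNA sequencing measured 21 libraries of mouse pancreatic tumour cells. The authors deposited gene-level TPM, made with Salmon on the mouse build mm10 per the submitters' processing notes; its version, the annotation, the strand setting and the step from transcripts to genes are not given in the sources used here. TPM keeps no read counts, so the depth per library is unknown, no counting interval could be given, and precision rests on the spread between libraries.

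Values were analysed as log2(TPM + 1) using limma 3.58.1 and statmod 1.5.0 under R 4.3.3; tables and plots used pandas 2.3.3, numpy 2.4.6 and matplotlib 3.10.9 under Python 3.11.15. Testing was limited to the 14337 of 24623 genes that reached 1 TPM in 3 or more libraries. Because the labels and the table name the KO lines differently, libraries were grouped by clone and genotype from the labels and by line from the column letters. A limma model with a mean for each of the 6 lines (15 residual degrees of freedom, eBayes with trend) gave 10 contrasts and a moderated F test. Tests were two-sided, adjusted by Benjamini-Hochberg over all genes tested, and called at an adjusted p under 0.05. A KO effect averages both KO lines of a clone and subtracts WT. A fold is a ratio of mean TPM. The procedure was tested on simulated data.

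The 10 genes, the lists of other genes and the markers were chosen with earlier results of these data known. All 10 genes were described. From each list the 4 tested genes with the smallest p over the 6 lines were named, with any called gene among a set of neighbours, and for each gene with a line mean of at least 1 TPM the 2 nearest profiles. Rian, Mirg, Rtl1, Igf2r, Sgce, Kcnq1ot1, Phlda2 and Copg2 were such neighbours; Dio3, Dcn, Kcnq1, Slc22a18 and Zrsr1 were named after their values were seen. Positions and promoter windows are RefSeq's on GRCm38.p6, the assembly of mm10. Windows of H19, Peg10 and Cdkn1c were not used here. Alternatives were other scalings, pseudocounts, filters and variance models, the library number as a block, the line as a random effect, and each library left out.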

Additional observations from a re-analysis of the deposited data

Results flagged for a closer look

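The KO effects on Meg3 differed between the clones by -3.28 ± 0.29 in log2(TPM + 1) (limma adjusted p 3.75e-07), with all 8 libraries labelled KO below WT in 6694c2 and all 3 KOB libraries above WT in 6419c5. The 3 KOA libraries of 6419c5 overlapped WT (0.35, limma adjusted p 0.327), and the difference did not pass when line was a random effect (adjusted p 0.0973).

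Among 30 groups of 4 libraries, a gap test at a critical value of 0.829 marked 2. Meg3 in 6694c2 KOA had a gap of 0.878 of its range, with library 2 at 0.782 TPM and the others between 2.14 and 2.33 TPM; the same library had the lowest fibroblast marker sum of its line, and its part in the value was not tested. Igf2 in 6694c2 WT had a gap of 1, with library 2 at 0.0231 TPM and the others at 0. With the others tied at 0 the gap is 1 whatever library 2 measured, so this mark carries no weight. Chance marks about 1 in 20 such groups when their values are not tied.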

How the results depend on the processing

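The directions and calls of Meg3 held in all alternatives run except when line was a random effect, where it lost its calls in both KO effects and their difference. Of 1726 recomputed values of members, 1649 kept direction and side of the threshold, 29 lost a call, 25 gained 1 and 23 changed sign, all of the last without a call. With at least 5 TPM in 3 libraries only Meg3 was left, and the count of called genes was 1 among the 6 lines and 1 in each comparison where more had been called. With no filter it was 8 among the 6 lines, 5 between the WT lines, 2 for 6419c5 KOA against KOB and 2 for the difference of KO effects. When line was a random effect it was 0 in both KO effects and the difference. For 6694c2 KOA it was 1 with size factors, with a pseudocount of 0.1 and with only the compared lines. KOA against KOB of 6694c2 had 5 with a pseudocount of 0.1. Without both libraries high in Mir6236 it was 1 in 6419c5 KOA and 2 for the difference. The library number as a block also gave 2 for the difference (Cdkn1c, limma adjusted p 0.0390), called Cdkn1c between the WT lines (0.0318) and changed no other count by over 1.5 times. Deviations correlated above 0.1 in 16 of 48 same-numbered pairs and 26 of 135 others, a larger share of the former. The best match of a library had its own number in 40 of 96 cases, and the number due to chance was not worked out. These values do not settle whether the numbers pair libraries. No pairing is given in the labels, so the main fit did not pair the samples.

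Leaving out 1 library, the count ran from 2 to 3 between the WT lines, 1 to 2 in 6694c2 KOA, 2 to 3 in 6694c2 KOB, 2 to 4 for KOA against KOB of 6694c2, 2 to 3 for the KO effect in 6419c5, 0 to 1 in 6419c5 KOA, 2 to 3 in 6419c5 KOB, 1 to 2 for 6419c5 KOA against KOB and 1 to 2 for the difference. Sign changes, none called, were Cdkn1c in 6694c2 KOB (9.66e-05 with a pseudocount of 0.1, 0.0037 rescaled without Mir6236, 0.0560 without both libraries), H19 in 6694c2 KOA (-0.038 with size factors, -0.16 with quantile normalization) and Mest between the WT lines (0.051 and 0.23). Without single libraries Mest between the WT lines ran from -0.095 to 0.035, Grb10 in 6694c2 KO from -0.084 to 0.028, H19 in 6694c2 KOA from -0.094 to 0.15, Cdkn1c in 6694c2 KOB up to 0.092, Cdkn1c in 6419c5 KOB from -0.41 to 0.057 and Mest for 6419c5 KOA against KOB from -0.34 to 0.10. The cause was not tested. The depth is unknown, so genes below 1 TPM are read as levels only.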

Other observations

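Zrsr1, a paternally expressed retrogene inside an intron of Commd1 on chromosome 11, separated the clones, with 309.4 to 460.9 TPM in 6694c2 WT and KOA and 13.97 to 18.9 TPM in 6419c5. In 6694c2 KOB it measured 268.5, 16.4, 232.7 and 274.6 TPM, so library 2 lay at the level of the other clone. Igf2bp3, which also separated the clones, lay between 0.384 and 0.512 TPM in all 4 of those libraries, at the level of their own clone. Zrsr1 was chosen after its values were seen, and the cause was not tested.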
